A study of Mus musculus with 16 samples.

Results

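N6-methyladenosine (m6A) is the most abundant internal mark of mRNA, written on RRACH sites (R is A or G, H is A, C or T) by a METTL3-METTL14 complex and read by YTH proteins that steer splicing, translation and decay. In brain it accumulates on long exons and around stop codons of neuronal transcripts, and the marked transcripts of stress and signalling genes are often short-lived. The comparison here sets the m6A peaks of mouse cerebral cortex after a full day of reperfusion (Re-24 h) against those taken when the artery was reopened (Re-0 h). Regions of transcript listed in both libraries of one time and in neither of the other were chosen. They numbered 2581 of 40401 regions, 1023 of them in both Re-24 h lists only and 1558 in both Re-0 h lists only.

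Male C57BL/6J mice of 6 to 8 weeks had the middle cerebral artery blocked by a filament for 2 h (MCAO), and peri-infarct cortex was taken after 0, 6 or 24 h of reperfusion, or after a sham operation without the filament. MeRIP-seq, which pulls down RNA fragments with an m6A antibody and compares them with input RNA, gave 2 lists of peaks for the Sham group and for each reperfusion time, named Re-0 h and so on. The study names 6 mice per surgery group but not how many stand behind a library, so the spread between the 2 libraries of a group may be technical. Tissue around an infarct mixes neurons, glia, vessel cells and incoming blood cells, and in such bulk samples fewer cells of a type and less RNA per cell cannot be told apart. Peaks depend on how much of a transcript is present as well as on its methylation, and since the input libraries were not analysed here the 2 cannot be told apart either. The lists hold no read counts, so the depth behind a peak is unknown and only its presence in a list can be compared. Each peak carries a score on an undefined scale, used here only as its percentile, the percent of peaks of the same list with a lower score.

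The Re-0 h lists held 19837 and 24078 peaks in 8024 and 9267 genes. The Re-24 h lists held 19072 and 22245 peaks in 7973 and 8815 genes. Their mean numbers of peaks, 21958 ± 2999 (SD, n = 2) and 20659 ± 2244 (SD, n = 2), did not differ beyond the replicates (two-sided exact permutation test, p = 0.667, where 2 against 2 lists cannot give less than 0.33). Because no test of 2 against 2 lists can pass, members are described below beside the 2 mixed divisions of the same 4 lists, which put 1 library of each time on each side. The second replicate of each time was the longer list. Marker genes of neurons had a peak in 7 and 8 of 12 cases at Re-0 h and 7 and 6 at Re-24 h, those of astrocytes in 4 and 5 of 7 against 3 and 4, and those of the oligodendrocyte lineage in 5 and 4 of 8 against 4 and 4. Microglial markers had a peak in 4 and 4 of 6 cases against 2 and 5, and endothelial markers in 2 and 5 of 5 against 5 and 4. None of the 6 markers of infiltrating myeloid cells, among them S100a8 and Ccr2, was listed at any time.

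Short coding stretches of signalling genes and of high-ranking members of each side show what a member looks like in sequence. Each is the core of a region, the bases shared by the peaks of both lists, read 5′ to 3′ on the transcript strand from GRCm39, with RRACH sites in capitals. Those of Tgfbr2, Tlr7, Spry1, Map3k3 and Dusp6 belong to the gene lists described below. The others are among the highest-ranking members of a side whose core lies in 1 coding exon, though a peak may reach across an intron.
Tgfbr2, Re-24 h only, chr9:115938962-115939036, minus strand, coding: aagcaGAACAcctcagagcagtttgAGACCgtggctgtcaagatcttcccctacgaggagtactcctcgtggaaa
Tlr7, Re-24 h only, chrX:166089875-166089949, minus strand, coding: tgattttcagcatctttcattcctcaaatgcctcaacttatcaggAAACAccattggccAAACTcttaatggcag
Spry1, Re-24 h only, chr3:37697167-37697316, plus strand, coding: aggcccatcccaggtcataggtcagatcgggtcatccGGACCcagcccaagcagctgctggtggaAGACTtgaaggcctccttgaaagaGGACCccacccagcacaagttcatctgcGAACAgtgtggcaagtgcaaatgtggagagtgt
Map3k3, Re-24 h only, chr11:106044900-106044999, plus strand, coding: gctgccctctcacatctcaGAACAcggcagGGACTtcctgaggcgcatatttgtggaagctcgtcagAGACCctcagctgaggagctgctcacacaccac
Dusp6, Re-24 h only, chr10:99101895-99101994, plus strand, coding, no RRACH site: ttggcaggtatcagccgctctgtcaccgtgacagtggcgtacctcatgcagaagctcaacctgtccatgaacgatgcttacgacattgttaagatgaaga
Rdx, Re-24 h only, chr9:51996578-51996627, plus strand, coding: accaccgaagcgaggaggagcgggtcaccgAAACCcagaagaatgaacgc
Pkp4, Re-24 h only, chr2:59142038-59142087, plus strand, coding: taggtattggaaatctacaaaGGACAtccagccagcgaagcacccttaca
Ell2, Re-0 h only, chr13:75855826-75855875, plus strand, coding: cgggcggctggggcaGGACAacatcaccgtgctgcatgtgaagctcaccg
Ppig, Re-0 h only, chr2:69579710-69579884, plus strand, coding: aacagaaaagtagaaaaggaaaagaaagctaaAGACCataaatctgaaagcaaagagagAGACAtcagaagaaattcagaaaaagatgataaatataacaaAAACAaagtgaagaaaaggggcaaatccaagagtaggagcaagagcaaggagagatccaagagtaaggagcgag
Ankrd12, Re-0 h only, chr17:66292602-66292676, minus strand, coding: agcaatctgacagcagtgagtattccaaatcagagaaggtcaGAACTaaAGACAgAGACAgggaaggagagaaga
Tusc3, Re-0 h only, chr8:39610315-39610364, plus strand, coding, no RRACH site: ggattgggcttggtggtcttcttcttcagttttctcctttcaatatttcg

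Members in 3′ UTRs are shown as windows of 25 nt around 1 RRACH site in capitals, chosen among immediate early, immune and signalling genes of both sides.
Jun, Re-24 h only, chr4:94937772-94937796, minus strand: aaaatacaatAAACTattgaaaagt
Arc, Re-24 h only, chr15:74542910-74542934, minus strand: ctgtccagccAGACAtctactcacc
Cd274, Re-24 h only, chr19:29362811-29362835, plus strand: aagcagtgttGAACCctctgatcgt
Cd44, Re-24 h only, chr2:102644405-102644429, minus strand: ctgggagctgGGACCctccacagat
Spry2, Re-24 h only, chr14:106129967-106129991, minus strand: tcagctaatgGAACCcgaaggaaga
Nr4a2, Re-0 h only, chr2:56998154-56998178, minus strand: tacctttctaAGACCttctcccaag
Egr2, Re-0 h only, chr10:67377143-67377167, plus strand: agttgttctgAGACTttttctacaa

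The 1023 Re-24 h-only regions made up 2.53% of all regions and the 1558 Re-0 h-only regions 3.86%. The division by replicate number put 600 regions (1.49%) in replicate 1 of both times only and 1775 (4.39%) in replicate 2 only. The crossed division gave 1004 regions (2.49%) and 686 (1.7%). Time thus separated 2581 regions, against 2375 for replicate number and 1690 for the crossed pairs. Set against 6543 regions in all 4 lists (16.2%) and 22974 in 1 list only (56.9%), most regions were listed irregularly. Replicates shared 0.366 of their joint regions at Re-0 h and 0.354 at Re-24 h, and lists of different times shared 0.329 to 0.366, so the lists were about as alike between times as within one.

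Strong peaks were most common on the Re-0 h side. Both peaks ranked in the upper 50% of their lists in 557 Re-0 h-only regions (35.8%) and in 210 Re-24 h-only regions (20.5%), while the mixed pairs held 17.7% to 28.2%. Building regions anew from only the upper 50% of every list gave 507 Re-24 h-only and 847 Re-0 h-only regions. Together these were 1354, against 1121 by replicate number and 752 for the crossed pairs. They are not all members, because the cutoff also drops weaker peaks of the other time and so makes further regions one-sided. Leaving out 1 library changes these counts by construction, because a side then rests on 1 list. Without Re-24 h replicate 1 there were 7329 Re-24 h-only regions, without replicate 2 there were 5519, and without Re-0 h replicate 1 or 2 there were 1541 or 2376. Re-0 h-only regions numbered 8684 without Re-0 h replicate 1, 6604 without Re-0 h replicate 2, 2521 without Re-24 h replicate 1 and 2962 without Re-24 h replicate 2.

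**Figure D1:**
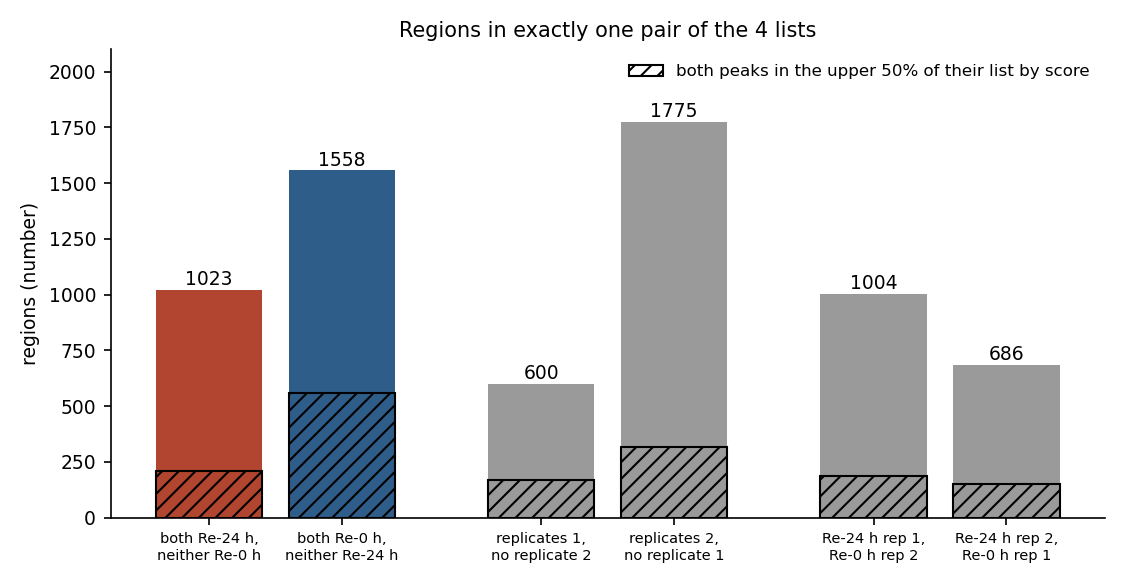
Number of regions (vertical axis) listed in exactly one pair of the 4 lists, red and blue for the division by time, grey for the 2 mixed divisions, hatched for regions whose peaks both ranked in the upper 50% by score. The Re-0 h side has 557 hatched regions, more than any other pair, while the 1775 regions of the second replicates are the highest bar.

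Re-24 h-only regions fell in 925 genes, 7.53% of the 12279 gene symbols with a peak in any of the 4 lists, and Re-0 h-only regions in 1396 genes (11.4%). Regions of both kinds occurred in 129 genes, 13.9% of the Re-24 h genes and 9.24% of the Re-0 h genes. Most members therefore lay in transcripts that also had a peak of the other time elsewhere. Only 236 Re-24 h-only regions (23.1%) were in a gene without any Re-0 h peak, and 290 Re-0 h-only regions (18.6%) in a gene without a Re-24 h peak, where the mixed pairs had 12.8% to 18.9%. Within 100 nt of exon of a peak of the other time lay 213 (20.8%) and 301 (19.3%) of them, beside 18.8% to 24.2% for the mixed pairs. Over whole genes, 359 genes (2.92%) had a peak in both Re-24 h lists and neither Re-0 h list and 466 (3.79%) the reverse, beside 172 to 504 genes for the mixed pairs.

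The 12 leading Re-24 h-only members in protein-coding genes, ranked by the lower percentile, included Btbd8, Rhoj, Gabrb2, Cep170, Rdx and Arrdc3. Rhoj, a small GTPase of vessel cells, had a core of 525 nt in its 3′ UTR (chr12:75447197-75447771, plus strand). Its percentile was 89.3 and 94.2 at Re-24 h and 64.2 and 68.6 at Re-6 h, and no Sham or Re-0 h library listed a peak there, nor did either Re-0 h list hold a peak anywhere in the gene. Rhoj was thus listed in all 4 libraries taken after reperfusion had gone on for hours and in none of the others. A coding region of Gabrb2, a GABA-A receptor subunit (chr11:42484686-42488451, plus strand, across an intron), ranked at 89.2 and 92.6 at Re-24 h, 81.7 and 76.6 at Re-6 h and 86.9 and 88.0 in Sham. Only the Re-0 h lists lacked the Gabrb2 peak, and 47 Re-24 h-only regions (4.59%) shared that pattern. The mixed pairs had 4.98% to 7.10% of their regions in all 4 Sham and Re-6 h lists. Btbd8 shared the Gabrb2 pattern with 93.1 and 91.7 at Re-24 h, as did Arrdc3, an arrestin-domain protein, with 86.7 and 87.9.

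Rdx encodes radixin, which ties actin to the cell membrane, and its coding region ranked at 88.7 and 87.1 at Re-24 h, 90.8 in Re-6 h replicate 1 and 85.2 in Sham replicate 1. Moesin, the related protein of Msn, had a coding region of the opposite side, at 92.7 and 91.6 at Re-0 h and listed in all 4 Sham and Re-6 h libraries, with no peak of the gene at Re-24 h. Among members found in both Re-6 h lists and neither Sham list, Ing1, a chromatin reader tied to p53, ranked at 83.0 and 75.4 at Re-24 h and 76.4 and 72.7 at Re-6 h. The 3′ UTR of Nefm, the medium neurofilament subunit, ranked at 78.3 and 69.8 at Re-24 h and at 68.1 and 70.4 at Re-6 h. For Il4ra, the receptor chain for interleukin 4 and 13, these percentiles were 76.1 and 69.2, then 58.9 and 46.4. Neither Nefm nor Il4ra had any peak in a Re-0 h list.

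Other members were listed at Re-24 h alone among the 8 libraries. Pkp4, an armadillo protein of cell junctions, ranked at 80.2 and 79.5 there, and Pak5, a neuronal kinase, at 78.7 and 82.3. Pkp4 also had a Re-0 h-only region farther along its coding sequence, at 80.8 and 78.0. Several genes held 3 or more Re-24 h-only regions, 14 in all. Arsj, an arylsulfatase, had 6 such regions, 5 of them coding, and Igsf10 had 5. Sphk1, which makes sphingosine 1-phosphate, had 3, and its first, in the 5′ UTR, ranked at 54.1 and 73.9 at Re-24 h, 56.3 and 61.2 at Re-6 h and 2.41 in Sham replicate 2. Tlr13, an endosomal sensor of bacterial RNA, had 3 that no other library listed, the coding one at 44.0 and 61.8. Arsj, Sphk1 and Tlr13 had no Re-0 h peak in the gene.

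The leading Re-0 h-only members ranked higher than those of the other side. Prr14l was at 99.9 in both Re-0 h lists and was also listed in both Re-6 h libraries, with no Sham peak. Ell2, an elongation factor of RNA polymerase II, was at 99.1 and 99.2, and a peak there was also listed in Sham replicate 2 at 99.2 and Re-6 h replicate 2 at 99.8. Pde1a, a calmodulin-dependent phosphodiesterase, had a core of 350 nt in its 3′ UTR (chr2:79666772-79669231, minus strand). It ranked at 98.2 and 99.6 at Re-0 h, 99.3 and 91.5 in Sham and 99.3 and 99.1 at Re-6 h, and the gene had no peak in either Re-24 h list. Pde1a is thus the mirror image of Gabrb2, near the top of the other 6 lists and missing from the 2 at Re-24 h. Presence in all 4 Sham and Re-6 h lists was found in 133 Re-0 h-only regions (8.54%), beside 4.98% to 7.10% for the mixed pairs.

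Tusc3, a subunit of the oligosaccharyl transferase, was listed at 98.2 and 97.3 at Re-0 h and 97.3 and 99.3 in Sham, its only region, and in none of the 4 later lists. Such regions were few, since 59 Re-0 h-only regions (3.79%) lay in both Sham lists and neither Re-6 h list. That share was above the 2.03% to 3.17% of the mixed pairs and the 1.86% of Re-24 h-only regions. Ppig, a nuclear cyclophilin, had regions at 99.1 and 97.9 and at 98.9 and 94.3, the second adjoining a Re-24 h peak. Ythdc1, the nuclear m6A reader, had a coding region at 95.0 and 90.2 at Re-0 h and 96.6 and 94.3 at Re-6 h, absent from Sham, which lay 26 nt along the exons from a Re-24 h peak. Rbm25, a splicing factor, was at 94.6 and 94.7 at Re-0 h and in no other library. Mia3, Pcnt, Prrc2c and Znfx1 held 4 Re-0 h-only regions each, and 17 further genes held 3, among them the histone methyltransferases Ash1l, Kmt2d and Setd2 and the calcium channel Cacna1a.

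The Sham and Re-6 h lists had no part in choosing the members. Re-24 h-only regions were found less often in a Sham list than Re-0 h-only regions, 423 (41.3%, 95% exact binomial interval 38.3 to 44.4) against 919 (59.0%, 56.5 to 61.4). The mixed pairs, at 46.3% to 52.0%, lay between them. In single lists the shares were 23.2% and 28.5% in Sham replicates 1 and 2 for the Re-24 h side and 40.0% and 38.5% for the Re-0 h side, and in each Sham list all 4 mixed pairs fell between these values. Regions in all 4 lists were found in a Sham list in 95.9% of cases. The intervals cover the counting of regions only, since regions of one gene or one library are not independent.

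The Re-6 h lists separated the sides less. A Re-6 h peak was present in 558 Re-24 h-only regions (54.5%, 51.4 to 57.6) and 975 Re-0 h-only regions (62.6%), where the mixed pairs ranged from 54.2% to 63.2%, so both sides fell within the mixed range. Higher-ranking peaks recur more often, and the Re-0 h side held more of them. Among regions whose lower percentile was under 25, a Sham peak was present in 30.8% of 487 Re-24 h-only and 41.5% of 554 Re-0 h-only regions. From 25 to 50 the shares were 44.2% and 60.2%, from 50 to 75 they were 58.6% and 73.7%, and from 75 up they were 79.3% of 29 and 78.7% of 188. The gap was thus present in the lower 3 bins and absent in the highest, which holds few Re-24 h-only regions. The mixed pairs had 32.8% to 41.2% in the lowest bin, 52.9% to 56.4% in the second and 66.0% to 69.8% in the next, between the 2 sides each time. Both Re-6 h lists and neither Sham list held 83 Re-24 h-only regions (8.11%) and 86 Re-0 h-only regions (5.52%), with 6.33% to 8.0% for the mixed pairs. No other list held 326 of the Re-24 h-only (31.9%) and 337 of the Re-0 h-only regions (21.6%), beside 23.8% to 29.5% for the mixed pairs.

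**Figure D2:**
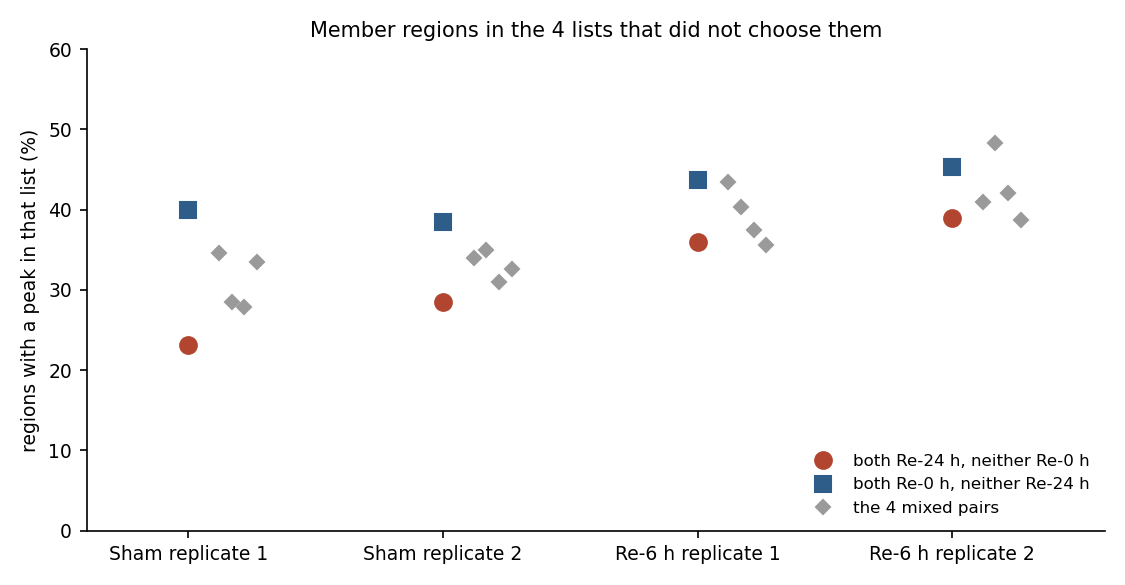
Percent of member regions (vertical axis) that have a peak in each of the 4 Sham and Re-6 h lists, red circles for Re-24 h-only, blue squares for Re-0 h-only and grey diamonds for the 4 mixed pairs. In both Sham lists the circles (23.2% and 28.5%) lie under all diamonds and the squares (40.0% and 38.5%) above them, and in the Re-6 h lists the symbols overlap.

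By place in the transcript the 2 sides differed little. Coding sequence held 48.6% of the Re-24 h-only and 51.7% of the Re-0 h-only regions, 3′ UTRs 33.8% and 30.6%, 5′ UTRs 6.16% and 6.23% and non-coding exons 11.3% and 11.4%, all within the range of the mixed pairs. Within 200 nt of the stop codon lay 188 of 844 Re-24 h-only regions placed on a coding transcript (22.3%, 19.5 to 25.2) and 225 of 1285 Re-0 h-only regions (17.5%, 15.5 to 19.7). The mixed pairs had 18.5% to 20.3%, and regions in all 4 lists 26.2%. Among whole lists the corresponding shares were 20.7% ± 0.0613 (SD, n = 2) at Re-0 h and 21.0% ± 0.0181 (SD, n = 2) at Re-24 h, with p = 0.33 in the same exact permutation test, the smallest it can give. Among members with both peaks in the upper 50% of their lists, the shares near the stop codon were 19.6% at Re-24 h and 15.8% at Re-0 h. Members of both sides had a median length of 150 nt, and the mixed pairs 150 to 175 nt. Joining peaks lengthens a region, and the median was 75 nt in 1 list, 225 nt in 3 and 425 nt in all 4. Protein-coding genes held 90.2% and 91.6% of them, and 84 and 106 members lay in lncRNAs.

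**Figure D3:**
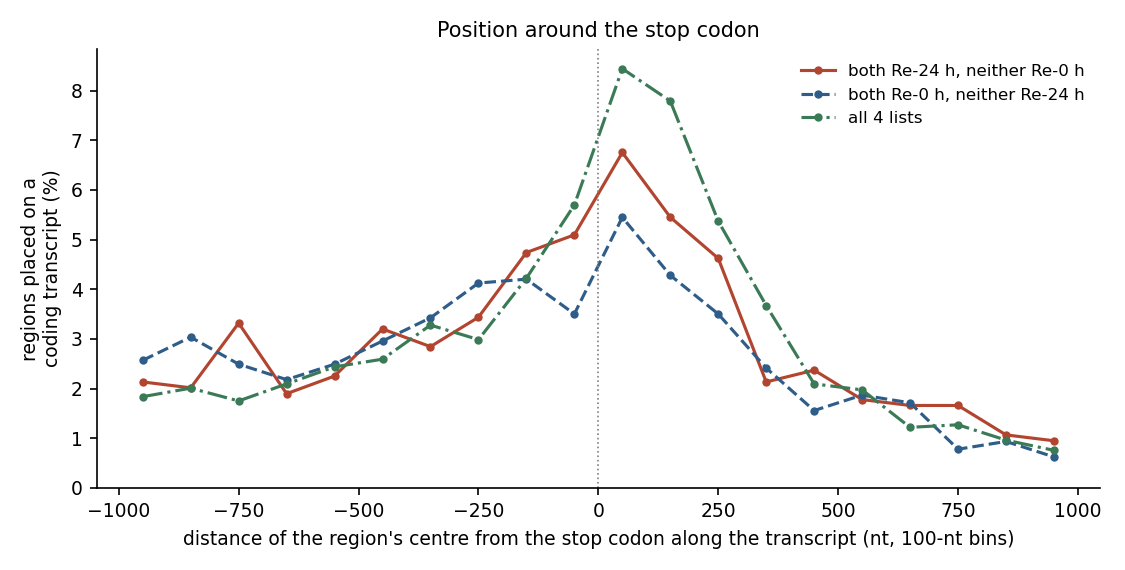
Percent of regions on coding transcripts (vertical axis) by distance of their centre from the stop codon in bins of 100 nt (horizontal axis, negative upstream), red solid for Re-24 h-only, blue dashed for Re-0 h-only and green dash-dotted for regions in all 4 lists. All 3 curves peak in the first 100 nt after the stop codon, at 6.75%, 5.45% and 8.44%.

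Sequence content did not set the sides apart. RRACH occurred 17.3 times per kb in Re-24 h-only and 16.9 times in Re-0 h-only regions, against 14 and 13.8 in the exons of the same genes outside every peak, ratios of 1.24 and 1.22. Regions in all 4 lists had 18.8 per kb. A 100-nt window at the centre held RRACH in 83.6% and 81.6% of the members and in 88.8% of the regions in all 4 lists, while 81.9% of all regions did, so the members were near the average region. GGAC was in 36.2% and 38.5% of these windows, against 38.2% of all regions. Only the transcript strand was searched, and a GGAC followed by A, C or T is also an RRACH. Median GC content was 48.9% and 49.1%. Over 70% purines were found in 1.47% and 2.44%, within the 1.01% to 2.59% of the mixed pairs, and the Ppig and Ankrd12 stretches printed above are of this purine-rich kind.

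Innate immune and NF-kB signalling genes, the receptors and transcription factors that carry the inflammatory response, had a larger share of members on the Re-24 h side than genes at large, among 19 lists compared. Of 41 such genes with a peak, 10 (24.4%) had a Re-24 h-only region and 2 (4.88%) a Re-0 h-only one, where all genes gave 7.53% and 11.4%. The mixed pairs touched 3, 3, 4 and 3 of them. By regions, 12 of 147 (8.16%) were Re-24 h-only, against 2.53% of all. The 10 genes were the sensors Tlr3 and Tlr7, the cytokine receptors Il1r1, Il6ra, Osmr and Tgfbr2, the kinase Ripk1, the transcription factors Cebpb and Cebpd and the checkpoint ligand Cd274. Only 1 of the 10, Cd274, had no Re-0 h peak elsewhere in the gene, beside 214 of all 925 genes with a Re-24 h-only region.

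Tlr7, a sensor of single-stranded RNA, had a coding region at 69.1 and 73.5 at Re-24 h, 31.9 in Re-6 h replicate 2 and 50.8 and 7.62 in Sham (chrX:166088500-166088899, minus strand), and a second one at 11.2 and 16.4 at Re-24 h alone. Osmr, the oncostatin M receptor that marks reactive astrocytes, had a coding region at 51.2 and 72.8 at Re-24 h and 18.8 in Re-6 h replicate 2 (chr15:6845008-6845307, minus strand). Ripk1, a kinase of death receptors, ranked at 52.4 and 62.1 at Re-24 h and 66.2 in Re-6 h replicate 2. The first Tlr7 region and those of Osmr and Ripk1 were absent from the Re-0 h lists by definition, but each was listed in at least 1 library at Re-6 h. Elsewhere in its transcript Ripk1 also had a Re-0 h-only region, and Tgfb1 was the other immune gene with one. Cd274, which encodes PD-L1, had a 3′ UTR region centred 14 nt after the stop codon at 56.2 and 45.6 at Re-24 h and 50.7 in Re-6 h replicate 1, and no peak anywhere in the gene in Sham or Re-0 h. The transcription factor Cebpd ranked at 56.8 and 37.1, and Tlr3, the sensor of double-stranded RNA, at 25.1 and 25. Cebpb at 15.3 and 59.8, Il6ra at 23.9 and 46.0 and Il1r1 at 11.7 and 53 were listed in no other library. These immune peaks were of middling rank, since 4 of the 12 lay in the upper 50% of both lists.

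Counted over whole genes and not over members, the same list did not separate the times. Immune genes with any peak numbered 26 and 34 at Re-0 h, 30 and 32 at Re-24 h, 32 and 31 at Re-6 h and 20 and 27 in Sham, of 64 listed. Their peaks numbered 48 and 78 at Re-0 h against 73 and 79 at Re-24 h, and 39 and 51 in Sham. Re-0 h replicate 1 was thus the low one and replicate 2 overlapped Re-24 h. Without Re-0 h replicate 1 the Re-24 h-only genes numbered 10 and without replicate 2 they numbered 12, while resting on 1 Re-24 h list gave 21 without replicate 1 and 19 without replicate 2. Re-0 h-only immune genes numbered 24 without Re-0 h replicate 1, 11 without Re-0 h replicate 2, 6 without Re-24 h replicate 1 and 3 without Re-24 h replicate 2. Microglial and endothelial markers with a peak overlapped between the times, as given above, and infiltrating myeloid markers had none. The part of cell content or RNA amount in this result was not tested.

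The MAP kinase list, kinases together with the Dusp phosphatases and Spry proteins that damp them, showed a like pattern. Re-24 h-only regions lay in 11 of 44 genes (25%) and Re-0 h-only regions in 5 (11.4%, equal to the background), with 3, 7, 4 and 3 genes for the mixed pairs, and 12 of 179 regions (6.70%) were Re-24 h-only. Of the 11 genes, 7 encode inhibitors of the pathway, Dusp4, Dusp5, Dusp6, Dusp8, Dusp19, Spry1 and Spry2, and 4 encode upstream kinases, Map3k3, Map3k4, Map3k9 and Map3k13. Such inhibitors are also a large part of the list, and their share among its 44 genes with a peak is not given here. Dusp6, which inactivates ERK, ranked at 66.7 and 67.6 at Re-24 h, 63.5 and 76.8 at Re-6 h and 64.7 in Sham replicate 2, and its coding region is the one printed above. Dusp6 had no Re-0 h peak at all, and it was the only such gene of the 11. Dusp4 ranked at 71.5 and 79.9 at Re-24 h and 43.2 in Sham replicate 1. The larger Spry1 region was at 49.5 and 40.2 at Re-24 h, 55.8 in Re-6 h replicate 2 and 71.4 in Sham replicate 2, while Spry2, at 60.8 and 52.3, was listed at Re-24 h alone.

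Of the 12 MAP kinase regions, 7 were also listed in a Sham library, 1 of them in both, and 9 in a Re-6 h library, 5 of them in both. The immune regions had 3 and 7 of 12, and 41.3% and 54.5% of all Re-24 h-only regions were listed in a Sham and in a Re-6 h library. Genes of this list with any peak numbered 36 and 37 at Re-0 h and 36 and 38 at Re-24 h of 58. The Re-24 h-only count was 7 among the upper 50% of peaks and 7 when no Re-0 h peak was allowed within 100 nt. Without Re-24 h replicate 1 it was 24, without replicate 2 it was 17, and it was 15 and 17 without Re-0 h replicate 1 and 2. On the Re-0 h side 5 genes became 24 without Re-0 h replicate 1, 18 without replicate 2, 6 without Re-24 h replicate 1 and 9 without Re-24 h replicate 2. Those 5 genes were Braf, Map2k7, Map4k4, Mapk14 and Dusp11, a phosphatase of RNA.

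Immediate early genes, the transcription factors and effectors switched on within minutes of stimulation, had Re-24 h-only regions in 6 of 29 genes (20.7%) and Re-0 h-only regions in 3 (10.3%, under the background), with 2, 3, 0 and 5 genes for the mixed pairs. Jun had a 3′ UTR region at 65.6 and 90.2 at Re-24 h, 73.1 and 83.1 at Re-6 h and 49.8 in Sham replicate 2 (chr4:94937721-94938020, minus strand), 51 nt along the exon from a Re-0 h peak. Junb, a partner in the AP-1 factor, had its only region, centred 54 nt after the stop codon, at 73.6 and 48.2 at Re-24 h and in no other library. Arc, which shapes glutamate receptor traffic, had a 3′ UTR region at 79.6 and 36.8 and a coding region at 38.4 and 44.8, both at Re-24 h alone, and the gene had no Re-0 h peak. The leading Egr1 region, in the 3′ UTR at 72.1 and 71.0, was likewise listed only there. In all, 5 of the 8 regions were in none of the other 4 lists.

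The 3 immediate early genes of the Re-0 h side behaved otherwise in the other lists. Nr4a2, a nuclear receptor of neurons, had a region of 600 nt centred 3 nt after its stop codon, at 81.2 and 85.8 at Re-0 h, 76.4 in Re-6 h replicate 1 and 67.9 and 27.5 in Sham. Egr2 had a 3′ UTR region at 59.3 and 68.2 at Re-0 h, 61.4 and 73.6 at Re-6 h and 3.30 and 18.5 in Sham. Neither gene had a Re-24 h peak. Fosb had a 5′ UTR region at 68.0 and 73.8 on the Re-0 h side and a non-coding exon at 1.65 and 7.64 on the Re-24 h side. With the upper 50% of each list, Re-0 h-only regions lay in 6 immediate early genes and Re-24 h-only ones in 5, so the lead of the Re-24 h side was not kept among strong peaks.

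**Figure D4:**
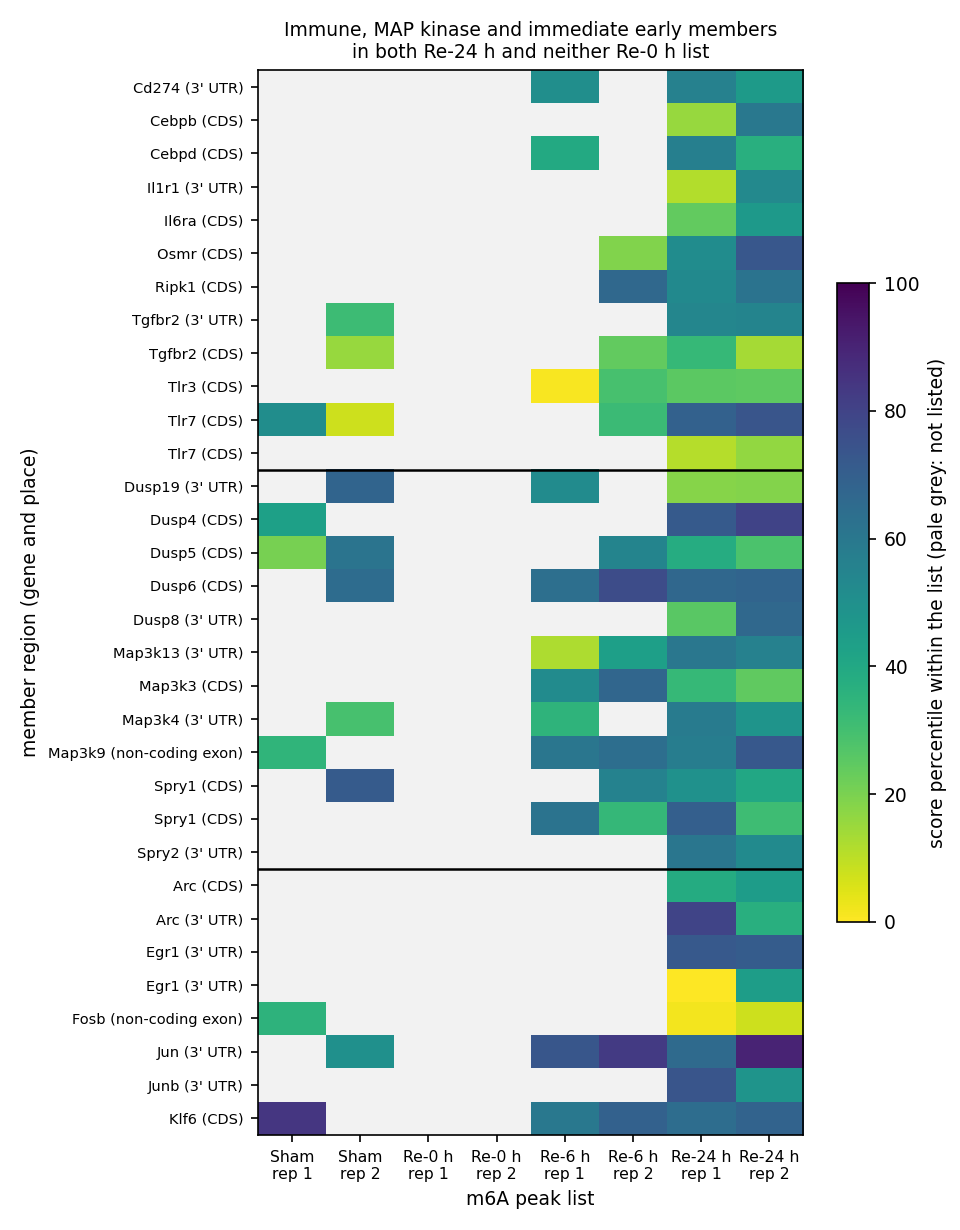
Score percentile within its list (color, 0 to 100, pale grey for not listed) of the Re-24 h-only regions of immune (top), MAP kinase (middle) and immediate early genes (bottom) in all 8 m6A peak lists. The Re-0 h columns are empty by the choice of members, the immune regions are mostly empty in Sham, and 9 of the 12 MAP kinase regions have a Re-6 h peak.

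Genes of glial identity and reactivity had members on both sides, 7 of 38 at Re-24 h (18.4%) and 6 at Re-0 h (15.8%), beside 1 to 4 for the mixed pairs. All genes gave 7.53% and 11.4%. By regions, 8 of 180 (4.44%) were Re-24 h-only and 7 (3.89%) Re-0 h-only, against 2.53% and 3.86% of all regions. Tnc, a matrix protein of reactive glia, had a coding region at 72.0 and 94.6 at Re-24 h and 5.87 in Re-6 h replicate 1. Cd44, a hyaluronan receptor, had a 3′ UTR region at 64.3 and 65.1 at Re-24 h in no other library, and no Re-0 h peak in the gene. Gja1, the connexin of astrocytes, ranked at 77.1 and 77.7 at Re-24 h and 87.5 in Sham replicate 1. Serpina3n, a marker of reactive astrocytes, was on the other side at 61.2 and 54.7 at Re-0 h and 72.6 in Re-6 h replicate 2, with no Re-24 h peak. The markers of reactive glia were thus split between the sides.

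The growth and inhibitory synapse lists had larger shares on the Re-0 h side. Growth and regeneration genes had Re-0 h-only regions in 7 of 33 (21.2%), among them Ank2, Ank3, Chl1, Fgfr3, Ncam1 and Ntrk3, and a Re-24 h-only region in 1, Fgf2, with 1 to 5 genes for the mixed pairs. Of their 144 regions, 5.56% were Re-0 h-only and 0.694% Re-24 h-only. Chl1, an adhesion molecule of growing axons, ranked at 86.3 and 81.2 at Re-0 h and in no other library, and a region of Ntrk3, the neurotrophin 3 receptor, at 72.2 and 88.5 with 82.0 and 90.6 at Re-6 h. Inhibitory synapse and chloride transport genes had 5 of 28 on the Re-0 h side (17.9%), Clcn3, Clcn4, Gad2, Lrrc8d and Slc12a2, and Gabrb2 alone on the other. The mixed pairs had 1 to 4 of these genes, and all genes gave 11.4% on the Re-0 h side. Gad2, which makes GABA, ranked at 75.9 and 41.7 at Re-0 h and had no Re-24 h peak. Of the 12 neuronal markers 8 had a peak, and 3 of these had Re-0 h-only regions, among them Gad2 and Tbr1. In 0 of the 8 was there a Re-24 h-only region, and the mixed pairs had 0 to 1. All genes gave 11.4% and 7.53%, so with 8 genes these counts are too small to set the sides apart.

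For other neuronal lists the excess over all genes shrank when regions rather than genes were counted, and in some a mixed pair reached as many genes. Voltage-gated ion channels had 12 of 56 genes (21.4%) and 15 of 313 regions (4.79%) on the Re-0 h side, and 9 genes (16.1%) and 10 regions (3.19%) on the Re-24 h side. The mixed pairs had 5 to 15 of these genes and 5 to 17 of these regions. Cacna1a, the P/Q-type calcium channel, had 3 Re-0 h-only regions and no Re-24 h peak, its 3′ UTR region ranking at 73.9 and 73.2 at Re-0 h and listed in all 4 Sham and Re-6 h libraries. A region of Cacna1c, an L-type channel, at 55.7 and 62.8 at Re-0 h, had the same pattern. Kcnj10, the potassium channel of astrocytes, was the reverse, at 80.8 and 88.3 at Re-24 h and listed in Sham and Re-6 h. Synaptic adhesion genes had 12 of 54 genes (22.2%) but 16 of 392 regions (4.08%) on the Re-0 h side, close to the 3.86% of all regions. Here the mixed pairs had 7 to 13 genes and 7 to 14 regions. Glutamate receptor and scaffold genes had 6 of 45 (13.3%) at Re-24 h and 4 (8.89%) at Re-0 h, presynaptic genes 3 and 6 of 35, and axon guidance genes 7 and 11 of 65. In the same order, the mixed pairs had 2 to 4, 1 to 6 and 4 to 9 genes.

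Chromatin enzymes carry many peaks per gene, 626 regions in 78 genes, and their region shares of 2.88% at Re-24 h and 4.47% at Re-0 h were near the background. Of the 28 Re-0 h-only regions 27 were coding and 0 in a 3′ UTR, and of the 18 Re-24 h-only regions 11 were coding and 6 in a 3′ UTR. Ash1l, Kmt2d and Setd2 gave 3 of the 28 each, so these regions are not independent, and the difference in place was not tested. Both peaks ranked in the upper 50% in 19 of the first and 4 of the second. Ash1l, a histone H3 methyltransferase, led with a coding region at 93.4 and 83.2 at Re-0 h that all 4 Sham and Re-6 h libraries listed. Setd2, which trimethylates H3 lysine 36, had one at 87.7 and 76.6, and Smarca4, the motor of a remodelling complex, one at 61.9 and 61.2 that was the only region of the gene.

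The machinery of m6A itself had members on both sides. Re-0 h-only regions lay in 5 of 21 genes (23.8%), the readers Ythdc1, Eif3a and Elavl1 and the writer cofactors Rbm15 and Zc3h13. Re-24 h-only regions lay in 3 (14.3%), Mettl16, Rbm15b and Rbmx, and the mixed pairs had 1 to 3 genes. All genes gave 11.4% and 7.53%. By regions, 6 of 102 (5.88%) were Re-0 h-only and 3 (2.94%) Re-24 h-only, against 3.86% and 2.53% of all regions. Zc3h13 ranked at 89.5 and 91.2 at Re-0 h and was listed in both Re-6 h lists and Sham replicate 1. Mettl16, a second m6A methyltransferase, was listed everywhere but at Re-0 h, at 8.01 and 49.5 at Re-24 h, 66.0 and 77.0 at Re-6 h and 42.4 and 48.4 in Sham. Ythdf1, Ythdf2 and Ythdf3, the cytoplasmic readers, had no member. Their peaks numbered 7 and 4, 5 and 4, and 4 and 3 at Re-0 h, and 2 and 4, 6 and 6, and 6 and 5 at Re-24 h.

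Genes of cell death and ferroptosis, an iron-dependent death by lipid oxidation, gave shares of members near or under those over all genes. Trp53, which encodes p53, had 1 peak in Re-0 h replicate 1 and 1 in Re-24 h replicate 2, in separate regions, and none in the other 6 lists. Slc7a11, the cystine importer that guards against ferroptosis, had 1 peak in each of the 8 lists, in 1 region found in all 4 lists compared here. Gpx4, the enzyme that repairs lipid peroxides, had none. Among 42 p53 and cell death genes, 3 (7.14%) had Re-24 h-only regions, Birc3, Sesn2 and Trp53bp2, and 5 (11.9%) had Re-0 h-only regions, Aen, Bcl2, Birc2, Birc6 and Gadd45b. Both shares were near those over all genes, 7.53% and 11.4%, and the mixed pairs had 1 to 9 genes. Of 20 ferroptosis genes, 0 had a Re-24 h-only region and Ncoa4, which delivers ferritin to lysosomes, had a Re-0 h-only one. Gsk3b had a region in all 4 lists, and Pparg had 5 regions, each in 1 list.

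The remaining lists gave shares nearer to the background or within the mixed pairs. Hypoxia and vascular genes had 4 and 5 of 49, with the ligand Vegfc at Re-24 h (27.3 and 27.6, its only region) and the receptors Flt1 and Kdr at Re-0 h. Slc2a3, the glucose transporter of neurons, had a coding region at 86.4 and 56.4 at Re-0 h that all Sham and Re-6 h libraries listed and no Re-24 h peak. Autophagy and mTOR genes had 4 and 9 of 49, Wnt genes 8 and 10 of 51, and heat shock genes 1 and 1 of 23, Hspa1a and Calr.

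**Figure D5:**
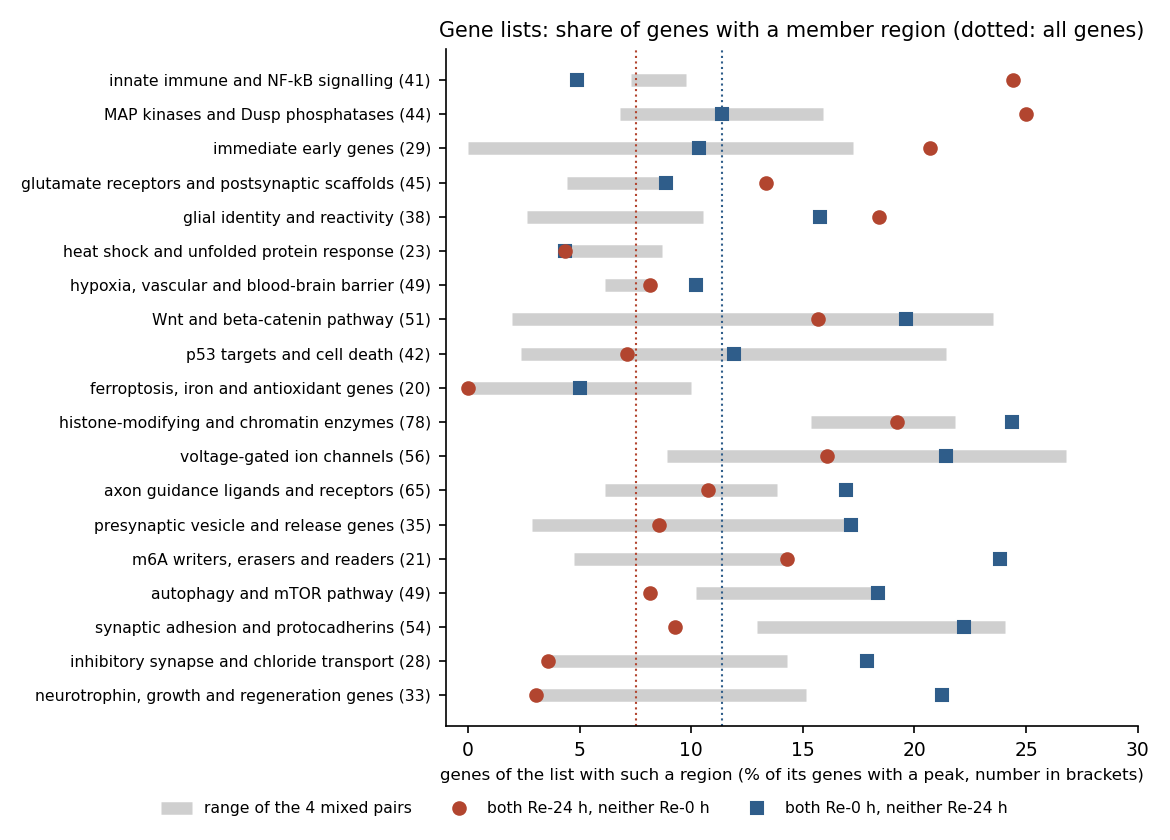
Percent of the genes of 19 lists (horizontal axis, genes with a peak in brackets) with a Re-24 h-only region (red circles) or a Re-0 h-only region (blue squares), beside the range of the 4 mixed pairs (grey bars) and the share over all genes (dotted lines, 7.53% and 11.4%). The circles of the immune (24.4%), MAP kinase (25%) and immediate early genes (20.7%) lie to the right of their grey bars, as do those of the glial (18.4%) and glutamate receptor genes (13.3%). So do the squares of the chromatin (24.4%), m6A (23.8%), growth (21.2%) and inhibitory synapse genes (17.9%). The squares of the axon guidance (16.9%), glial (15.8%) and hypoxia genes (10.2%) do so as well.

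Regions in all 4 lists, which the choice of members left out, offer a graded measure. Of 6543 such regions, 1251 (19.1%) had both Re-24 h percentiles above both Re-0 h percentiles and 1164 (17.8%) the reverse. By replicate number the counts were 1726 (26.4%) and 601 (9.19%), and for the crossed pairs 1030 (15.7%) and 771 (11.8%). Gaps of at least 20 percentile points were found in 115 and 101 regions by time, 193 and 22 by replicate number and 78 and 41 for the crossed pairs. Together, time and replicate number ordered about equal numbers of shared peaks, 2415 and 2327. Across these regions, which share their transcripts and base composition, percentiles correlated with Pearson r of 0.679 and 0.644 between replicates and 0.614 to 0.638 between times, as a description over 6543 regions.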

How the data were processed

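Peak lists of 8 MeRIP-seq IP libraries were used, 4 of them for the comparison. RNA was cut to about 200 nt according to the labels and about 100 nt according to the study's methods, which limits how finely a peak can be placed. Per the labels and the study's methods, the authors trimmed reads with Trim Galore, aligned them to GRCm39 with HISAT2, filtered them with SAMtools and called peaks with exomePeak2. The value deposited for each peak is a score whose scale is not given in the sources used here, so it was used only as a percentile within its list. Input libraries were not analysed here.

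Deposited peaks span introns in 1 block, so their exonic part was rebuilt from the exons of GENCODE M39 on the same strand, after which 95.6% to 97.1% of the peaks across introns had a length that was a multiple of 25 nt, the bin of the peak caller. Peaks of the 4 lists sharing at least 1 exonic base were joined into regions. Places were given to the centre of a region, with coding sequence before 3′ UTR and 5′ UTR where transcripts overlap. Counts were set beside the 2 mixed divisions, and exact permutation tests were used only for whole-list values. Intervals are exact binomial (95%). Reads from overlapping genes on one strand cannot be assigned by these lists.

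The members and gene lists were chosen with earlier results of these data known. Named genes are, per side and by the lower percentile, the 12 leading protein-coding members, the 6 leading ones of each pattern over the Sham and Re-6 h lists, genes with 3 or more member regions, list genes, and Trp53, Slc7a11, Gpx4, Cd274, Gsk3b, Pparg and the Ythdf genes. Python 3.11.15, NumPy 2.4.6, SciPy 1.17.1, pysam 0.24.0, samtools 1.23.1 and matplotlib 3.10.9 were used, and the joining of peaks was tested on simulated data. Alternatives are given in the closing section. Some members of the gene lists are counted but not reported by name here.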

Additional observations from a re-analysis of the deposited data

How the results depend on the processing

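No paired analysis was possible because presence or absence in 2 lists a side gives no fit to block, and nothing in the labels ties equal replicate numbers together. Depth is unknown, and peaks near the calling threshold can be listed in 1 library and missed in the next. Of the alternative values computed, 168 stayed within 1.5 times the reported count or within its interval, 109 moved and 2 changed direction. The overlap rule, the joining over spans or over all 8 lists and the order of transcript places moved none of the main counts and shares. Neither did exons of coding transcripts only, an alternative chosen after seeing the data.

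Keeping the upper 50% of each list gave 507 Re-24 h-only and 847 Re-0 h-only regions, 1354, 1121 and 752 regions by time, replicate number and crossed pairs, and 474 and 769 genes. On the Re-24 h side 59.0% were then in a Re-6 h list and 7 MAP kinase genes had members. On the Re-0 h side 57% were coding, 20.3% near the stop codon, 63.2% in a Sham list and 65.1% in a Re-6 h list, with 0 immune and 1 MAP kinase genes. With the same number of peaks from each list, 46.1% and 59.7% of the Re-24 h-only regions were in a Sham and a Re-6 h list, 63.5% and 66.3% of the Re-0 h-only regions, and 0 immune genes had a Re-0 h-only region. Without a peak of the other time within 100 nt, 7 MAP kinase genes remained at Re-24 h and 1 immune gene at Re-0 h. Stop codon windows of 100 and 400 nt held 11.8% and 35.1% of the Re-24 h-only and 9.03% and 30.9% of the Re-0 h-only regions. Members in the upper 50% of both lists were coding in 56.2% and 61.0% of cases, in 3′ UTRs in 31.0% and 26.4%, and near the stop codon in 19.6% and 15.8%, at Re-24 h and Re-0 h. The motif ratio over unpeaked exons was 1.17 and 1.14 for DRACH and 1.38 and 1.48 for GGAC, and over the regions in all 4 lists RRACH was 0.921 and 0.897, in the opposite direction. Gaps of 20 points left 115 and 101 shared regions.

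Leaving out each library in turn gave 1541 to 7329 Re-24 h-only and 2521 to 8684 Re-0 h-only regions, 8481 to 10225 by time, in 1368 to 4941 and 2121 to 5629 genes. The Re-24 h side then had 46.8% to 50.4% coding, 28.2% to 36.0% in 3′ UTRs, 16.4% to 21.5% near the stop codon, 23.0% to 59.5% in a Sham list, 30.6% to 71.6% in a Re-6 h list, and 10 to 21 immune and 15 to 24 MAP kinase genes. The Re-0 h side had 47.5% to 56.1% coding, 25.8% to 33.6% in 3′ UTRs, 15.1% to 20.2% near the stop codon, 30.3% to 68.0% in a Sham list, 35.2% to 72.6% in a Re-6 h list, and 3 to 24 immune and 6 to 24 MAP kinase genes.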
